A study of Homo sapiens with 4 samples.

Results

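The mRNAs of 8 amino acid transporter genes were followed in H1975 cells kept in hypoxia and in normoxia. The genes are SLC7A5, SLC7A6, SLC3A2, SLC1A5, SLC1A4, SLC38A1, SLC38A2 and SLC7A1, taken by symbol from the 15562 genes of the RNA-seq tables, where all 8 were listed. H1975 is an established human lung adenocarcinoma cell line, labelled wild type and grown in RPMI medium with fetal bovine serum. The hypoxia cells were kept for 24 h in a gas mix of 1% O2, 5% CO2 and 94% N2, and the normoxia cells were cultured for 24 h under 5% CO2. Each condition had 1 RNA-seq library and 1 small RNA library, so no difference could be set against the spread between cultures, and no p-value is given. Every interval is a 95% counting interval, which covers counting error only.

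Amino acids cross the plasma membrane through carriers that either exchange one amino acid for another or couple uptake to sodium. In tumour cells, sodium-coupled carriers bring in glutamine, and exchangers of the SLC7 family trade intracellular amino acids such as glutamine for leucine and other essential amino acids, which feed protein synthesis and mTORC1 signalling. Many of these genes are known targets of ATF4, the transcription factor of the amino acid response, and several are known targets of MYC. SLC7A5 is also known as a target of hypoxia-inducible factor (HIF) in kidney cancer cells.

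A motif of the amino acid response was searched in the RefSeq promoter windows of the members (GRCh38.p14), which run from 250 bases before to 50 bases after an annotated start. The motif was TGATGNAA on either strand, the core of the composite site bound by ATF4 with C/EBP factors. It was found in 5 of the 8 genes and in 5 of their 14 windows. Among the 10426 genes past the expression filter that had a window, 2.76% held it, and 2.02% of their windows did. The members had 1.75 windows per gene and those genes 1.46. The 5 stretches are shown because they are the sequence that these members share, each read in the direction of the motif, with the motif in capitals.
SLC1A4: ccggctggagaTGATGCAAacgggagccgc
SLC3A2: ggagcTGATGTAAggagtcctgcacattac
SLC38A1: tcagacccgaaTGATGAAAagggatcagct
SLC7A1: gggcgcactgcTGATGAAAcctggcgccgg
SLC1A5: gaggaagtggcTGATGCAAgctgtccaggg

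The SLC1A4 stretch lies at chr2:64989381-64989410 on the minus strand and the SLC3A2 stretch at chr11:62881719-62881748 on the minus strand, both opposite to the gene. The SLC38A1 stretch (chr12:46266502-46266531), the SLC7A1 stretch (chr13:29595663-29595692) and the SLC1A5 stretch (chr19:46784893-46784922) lie on the minus strand, which is the strand of these genes. Counted from the annotated start, the motif begins at position 8 in SLC7A1, -4 in SLC38A1, -7 in SLC1A4, 38 in SLC3A2 and -97 in SLC1A5. The site of SLC7A1 lies beside its only annotated start, whereas SLC3A2 and SLC1A5 each have 3 starts and SLC1A4 and SLC38A1 each have 2, with the motif beside 1 of them. The letters ACGTG are a form of the core of the site bound by HIF, and no other form was searched. They were found on either strand in 5 of the 8 genes (SLC7A5, SLC1A5, SLC1A4, SLC38A1 and SLC7A6), against 32.2% of the genes with a window. By window they were in 5 of 14, against 25.3% of the windows of those genes. In SLC7A5 and SLC1A5 they lay inside the E-box CACGTG, a site bound by MYC with MAX, which 12.6% of genes held. By window the E-box was in 2 of 14, against 9.30%.

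The RNA-seq libraries held 18943320 counts in hypoxia, against 17643836 in normoxia. As a check of the labels, 15 of 15 listed HIF targets had a log2 ratio of hypoxia over normoxia above 0. Their median was 0.51, from 1.32 in NDRG1 to 0.23 in ANGPTL4, where that of all genes past the filter was 0.0032. The list was chosen with earlier results of these data known, so this count is not an independent check. The epithelial markers KRT8, KRT18, KRT19, KRT7, EPCAM and CDH1 summed to 154923 counts in hypoxia, against 160808 in normoxia, with log2 ratios from 0.09 in EPCAM to -0.42 in KRT7. Of the lung lineage factors, NKX2-1 had 1567 counts in hypoxia, against 1356 in normoxia (0.12, 0.01 to 0.22) and FOXA2 had 637 in hypoxia, against 683 in normoxia (-0.19, -0.35 to -0.04). The surfactant genes SFTPB, SFTPC and SFTPA1 had 14 counts or fewer in each library. Of other cell types, the 4 endothelial markers in the table summed to 104 counts in hypoxia, against 103 in normoxia, with VWF at 2 in hypoxia and 0 in normoxia. The 4 leukocyte markers summed to 333 in hypoxia, against 434 in normoxia, nearly all of it CD14 (log2 ratio -0.44), with PTPRC at 2 in hypoxia and 0 in normoxia. The 7 fibroblast markers summed to 2276 in hypoxia, against 2044 in normoxia, most of it COL1A1. COL3A1 had 60 counts in hypoxia and 25 in normoxia, while COL1A2 had 226 in hypoxia and 271 in normoxia (log2 ratio -0.35, -0.62 to -0.09). Of the 6 fibroblast markers past the filter, 4 had a log2 ratio above 0 and 2 below. The part of these other markers in the members' differences was not tested.

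Levels were compared between genes as FPKM, which the authors normalised to gene length and library total. SLC1A5, SLC38A2 and SLC3A2 were highest, SLC7A5 lay below them, and SLC7A1, SLC7A6, SLC38A1 and SLC1A4 were low.

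SLC1A5, which exchanges glutamine and other neutral amino acids in a sodium-dependent way, had 78.4 FPKM in hypoxia (76.1 to 80.6) and 76.3 FPKM in normoxia (74.0 to 78.6). SLC38A2, a sodium-coupled carrier of glutamine and small neutral amino acids, had 76.9 FPKM in hypoxia (75.1 to 78.8) and 80.9 FPKM in normoxia (79.0 to 82.8). These 2 changed places as the highest member, but their intervals overlap in hypoxia, so their order there is within counting error. SLC3A2, the glycoprotein heavy chain (4F2hc, CD98) that carries SLC7 light chains to the cell surface, had 66.8 FPKM in hypoxia (64.4 to 69.2) and 74.8 FPKM in normoxia (72.3 to 77.4). Its interval overlaps that of SLC1A5 in normoxia and lies below it in hypoxia. SLC7A5 (LAT1), the light chain that exchanges leucine and other large neutral amino acids, had 45.1 FPKM in hypoxia (43.8 to 46.5) and 41.0 FPKM in normoxia (39.7 to 42.3). It lay above 87.4% of genes past the filter in hypoxia and 85.9% in normoxia.

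The low group had 2.58 to 8.45 FPKM in hypoxia and 2.39 to 8.31 FPKM in normoxia. SLC7A1, the main carrier of arginine and lysine in many cells, was highest of them, with SLC7A6, SLC38A1 and SLC1A4 below it in that order in both libraries. The intervals of SLC7A6 (6.77 to 7.71) and SLC38A1 (6.59 to 7.31) overlap in hypoxia, and those of SLC7A1 (7.82 to 8.82) and SLC7A6 (7.53 to 8.56) overlap in normoxia. SLC1A4, an exchanger of alanine, serine and cysteine, was lowest in both. The 8 genes summed to 292 FPKM in hypoxia and 298 FPKM in normoxia, and took 0.122% and 0.123% of all counts.

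**Figure D1:**
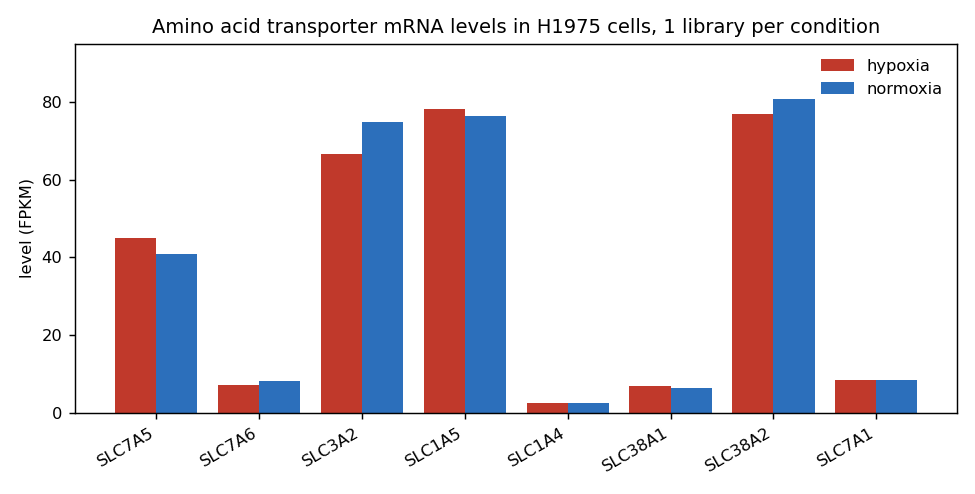
Level of each amino acid transporter mRNA in FPKM (y axis, from 0) in the hypoxia library (red, left bar) and the normoxia library (blue, right bar), 1 library each, so no error bar is drawn. SLC1A5, SLC38A2 and SLC3A2 stand at 66.8 to 80.9 FPKM, SLC7A5 at 45.1 and 41.0 FPKM, and the other members under 9 FPKM.

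All 8 members passed the expression filter and were well counted, which here means 100 or more counts in each library. By the size rule of a 2-fold ratio with an interval that excludes no change, 0 of 8 were higher in hypoxia and 0 lower, where 0.472% and 0.440% of the 12725 genes past the filter were called. By a smaller rule, a log2 ratio of 0.32 or more in size with an interval that excludes no change, again 0 were higher and 0 lower, against 3.41% and 3.29% of genes. By the interval alone, 2 of 8 lay wholly above no change (SLC7A5 and SLC38A1) and 3 of 8 wholly below it (SLC3A2, SLC38A2 and SLC7A6), against 15.0% and 14.0% of genes past the filter. SLC38A1 was not above no change in every setting: its interval held 0 with the trend on gene length removed (-0.05 to 0.17), which leaves 1 of 8. On log2 FPKM plus 1 its ratio was 0.10. The pseudocount pulls that ratio towards 0 while the width of the count interval was kept, so the range of -0.01 to 0.21 shows no loss. With total counts, the scaling of FPKM, its interval was 0.005 to 0.23. Of the 10739 genes well counted in both libraries, 16.2% had an interval wholly above no change and 15.2% wholly below it. The median log2 ratio of the members was 0.04 and that of all genes past the filter 0.0032. The largest member differences were within the central 90% of well-counted genes, which spans log2 ratios from -0.25 to 0.26. The differences between libraries are those of whole cultures, in which fewer cells of a kind and less RNA per cell cannot be told apart.

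**Figure D2:**
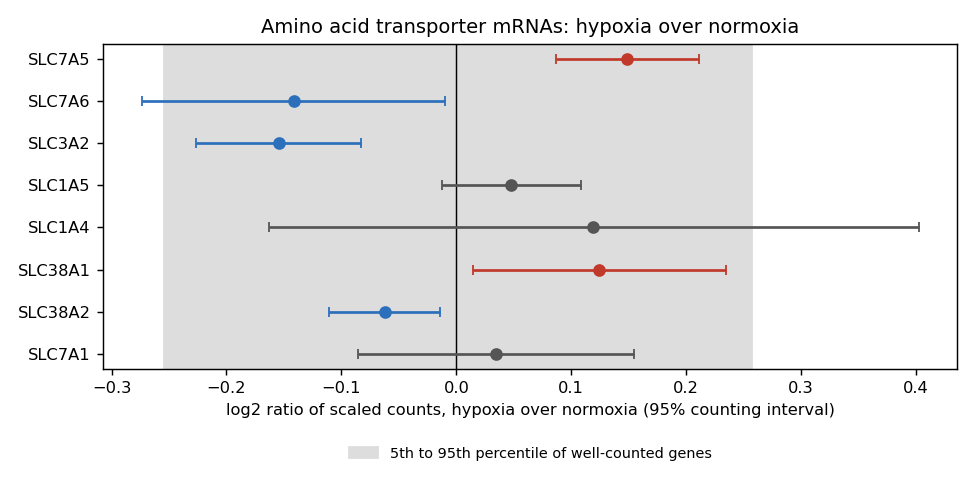
Log2 ratio of scaled counts, hypoxia over normoxia (x axis), for each amino acid transporter, with its 95% counting interval (bar). Red marks intervals wholly above 0 (SLC7A5, and SLC38A1, which holds 0 once the length trend is removed), blue those wholly below 0 (SLC7A6, SLC3A2, SLC38A2) and grey those that hold 0, and the grey band spans -0.25 to 0.26, the 5th to 95th percentile of genes well counted in both libraries.

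Of the heterodimer genes, SLC7A5 and SLC3A2 went opposite ways, while the light chain SLC7A6 went the same way as SLC3A2. SLC7A5 (Entrez 8140, chromosome 16, 87830023 to 87869507, GRCh38.p14) had 4580 counts in hypoxia, against 3874 in normoxia, for a log2 ratio of 0.15 (0.09 to 0.21), or 1.11-fold. Of well-counted genes, 84.6% had a lower ratio. SLC7A5 has partial copies on the same chromosome, SLC7A5P1 and SLC7A5P2, and no source used here states the handling of reads that match both, so its level is uncertain to that extent.

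SLC3A2 (Entrez 6520, chromosome 11, 62856109 to 62888860) had 3086 counts in hypoxia, against 3221 in normoxia, for a log2 ratio of -0.15 (-0.23 to -0.08), 1.11-fold lower in hypoxia. It was the lowest of the 8, and 13.0% of well-counted genes had a lower ratio. SLC7A6 (y+LAT2; Entrez 9057, chromosome 16, 68264526 to 68301819), the light chain that exchanges cationic for neutral amino acids, had 928 counts in hypoxia, against 960 in normoxia. Its log2 ratio was -0.14 (-0.27 to -0.01). The gene overlaps SLC7A6OS on the other strand, which had 519 and 512 counts, and the sources used here do not say whether counting used strand. Summed with that row, SLC7A6 was at -0.12 (-0.22 to -0.01).

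The ratio of one gene to another within a library does not depend on how the libraries are scaled. SLC7A5 had 1.48 counts per SLC3A2 count in hypoxia and 1.20 in normoxia, so the ratio was 1.23 times as high in hypoxia (1.16 to 1.32). Per length, SLC7A5 stood at 0.676 of the SLC3A2 level in hypoxia and 0.548 in normoxia. The SLC7A6 level was 0.108 and 0.107 of the SLC3A2 level, a ratio of ratios of 1.01 (0.91 to 1.12). SLC7A5 against SLC7A6 was 1.22 times as high in hypoxia (1.11 to 1.35).

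Other SLC7 light chains that pair with SLC3A2 were sparse. SLC7A11 (xCT), which imports cystine in exchange for glutamate, had 296 counts in hypoxia, against 252 in normoxia, with 1.60 and 1.47 FPKM and a log2 ratio of 0.14 (-0.11 to 0.39). SLC7A8 (LAT2) had 49 and 46 counts and SLC7A7 (y+LAT1) 16 and 19, while SLC7A10 did not pass the filter. Summed over these 4 with SLC7A5 and SLC7A6, light chains stood at 0.823 of the SLC3A2 level in hypoxia and 0.691 in normoxia, of which SLC7A5 made up 82.1% and 79.3%.

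The glutamine and neutral amino acid exchangers of the SLC1 family showed no difference beyond counting error. SLC1A5 (ASCT2; Entrez 6510, chromosome 19, 46774883 to 46788594) had 4686 counts in hypoxia, against 4251 in normoxia, for a log2 ratio of 0.05 (-0.01 to 0.11). At this depth a difference above 1.08-fold lies outside its interval. SLC1A4 (ASCT1; Entrez 6509, chromosome 2, 64988479 to 65023865) had 227 and 196 counts, a log2 ratio of 0.12 (-0.16 to 0.40). With so few reads its interval reaches from a ratio of 0.893 to 1.32, and a difference was not detectable. The ratio of SLC1A4 to SLC1A5 was 1.05 times that of normoxia (0.86 to 1.28).

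The SLC38 carriers, which take up glutamine and other neutral amino acids with sodium, differed from each other. SLC38A1 (SNAT1; Entrez 81539, chromosome 12, 46183063 to 46269043) had 1452 counts in hypoxia, against 1249 in normoxia, for a log2 ratio of 0.12 (0.01 to 0.23). SLC38A2 (SNAT2; Entrez 54407, chromosome 12, 46358188 to 46372773), which is known to be induced when amino acids are scarce, had 6988 counts in hypoxia, against 6843 in normoxia, for a log2 ratio of -0.06 (-0.11 to -0.01). The 2 genes lie near each other on the same strand, and the ratio of SLC38A1 to SLC38A2 was 1.14 times as high in hypoxia (1.05 to 1.24).

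Ratios were higher in longer genes among those well counted, with a median log2 ratio of -0.05 in the shortest of 5 length classes and 0.05 in the longest. SLC38A1 has the longest transcript model of the members (11045 bases, as implied by the authors' FPKM) and SLC3A2 the shortest (2440 bases). With the trend on length removed, SLC38A1 was at 0.06 (-0.05 to 0.17), so its interval then held 0. SLC3A2 was at -0.13 (-0.20 to -0.05) and SLC7A5 at 0.13 (0.06 to 0.19), and their ratio was 1.19 times as high in hypoxia (1.11 to 1.27). The ratio of SLC38A1 to SLC38A2 was then 1.10 (1.01 to 1.20).

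SLC7A1 (CAT1; Entrez 6541, chromosome 13, 29509414 to 29595688) had 1187 counts in hypoxia, against 1087 in normoxia, for a log2 ratio of 0.03 (-0.09 to 0.15). With the length trend removed it was at -0.0051, so it has no direction. It is a known target of miR-122-5p in liver cells, and SLC7A5 is a known target of miR-126-3p in lung cancer cells. The mature sequences from RefSeq (GRCh38.p14) are shown, with the seed, bases 2 to 8, in capitals.
miR-122-5p: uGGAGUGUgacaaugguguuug
miR-126-3p: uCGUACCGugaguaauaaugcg

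The small RNA libraries held 6576 reads on known miRNAs in hypoxia and 32116 in normoxia. miR-122-5p had 169 reads in hypoxia, 2.57% of miRNA reads (2.20 to 2.98, exact Clopper-Pearson), and 142 reads in normoxia, 0.442% (0.373 to 0.521). In the authors' TPM it had 15.5 in hypoxia and 15.97 in normoxia. Its share was higher in hypoxia and its TPM about level with normoxia. The TPM are per a larger total, of which miRNA reads are 0.0601% in hypoxia and 0.361% in normoxia. miR-126-3p had 29 reads in hypoxia, 0.441% (0.296 to 0.633), and 140 in normoxia, 0.436% (0.367 to 0.514), with 2.65 and 15.7 TPM. Here the shares overlap and the TPM was lower in hypoxia. A direction for either miRNA therefore depends on the scaling, and a link to SLC7A1 or SLC7A5 was not tested. miR-137-3p, a known regulator of SLC1A5, is not analysed here.

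Across the 28 pairs of members, ordered so that each ratio is 1 or more, the interval excluded 1 for 12. The share among pairs of other genes was not computed, so 12 of 28 has no background beside it. Of single well-counted genes, 16.2% had an interval wholly above no change and 15.2% wholly below it. SLC3A2 had the lowest log2 ratio of the members, so each other member has its largest ratio over SLC3A2 by this ordering. The count over SLC3A2 is therefore partly set by that choice. Of the 7 pairs over SLC3A2, 5 excluded 1, the exceptions being SLC7A6, which lay at the same low end, and SLC1A4, whose counts are few. With the length trend removed 9 of the 28 excluded 1, and over SLC3A2 those of SLC7A5, SLC38A1 and SLC1A5 did, while SLC7A1 (1.09, 0.987 to 1.20) and SLC38A2 (1.03, 0.972 to 1.10) no longer did. The pairs did not separate the members into sets. All 7 pairs with SLC1A4 held 1, as did SLC7A1 against SLC38A2 (1.07, 0.978 to 1.17) and against SLC7A6 (1.13, 0.998 to 1.28).

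**Figure D3:**
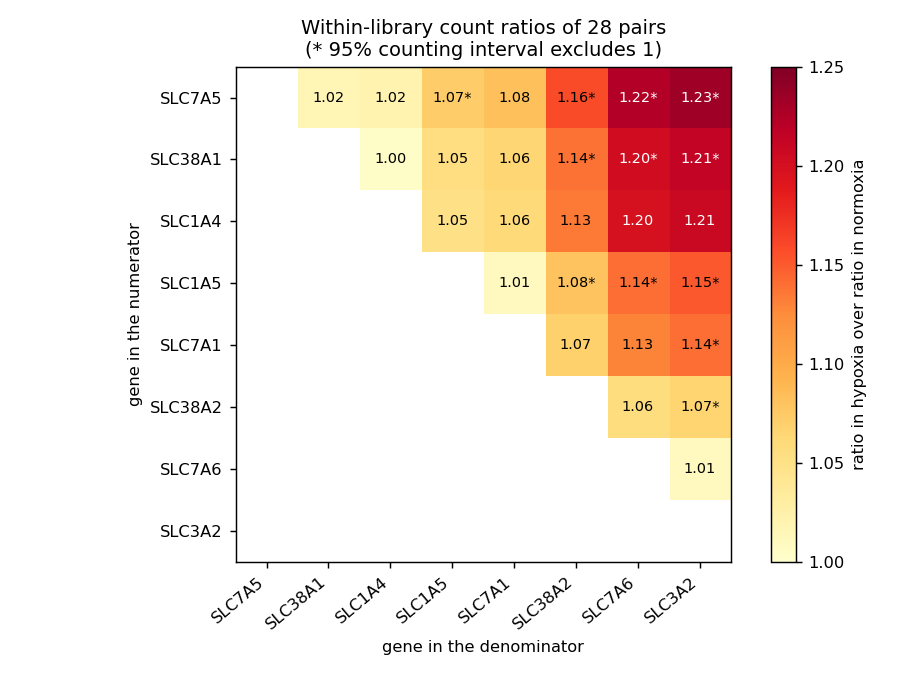
Count ratio of the row gene to the column gene in hypoxia, divided by the same ratio in normoxia, for 28 pairs of amino acid transporters ordered by their log2 ratio, so values are 1 or more by construction. The largest is SLC7A5 over SLC3A2 at 1.23, and a star marks a 95% counting interval that excludes 1.

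The differences of the members were small beside those of HIF targets. Of the 15 HIF targets, 13 were called higher and 0 lower by the smaller rule, where 0 and 0 of the 8 members were. VEGFA, the main angiogenic growth factor, had 3808 counts in hypoxia, against 2268 in normoxia, for a log2 ratio of 0.65, and the glucose transporter SLC2A1 had 2373 and 1361, a log2 ratio of 0.71. Among factors known to act on transporter genes, MYC had 16870 and 19467 counts, a log2 ratio of -0.30 (-0.33 to -0.27), and was the lowest of 8 in that list, with TEAD1 highest at 0.14 (0.04 to 0.23). ATF4, named here after its value was seen, had 6023 and 6074 counts, a log2 ratio of -0.10 (-0.16 to -0.05). HIF stabilisation and ATF4 translation are regulated after transcription and are not read by these mRNA values.

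**Figure D4:**
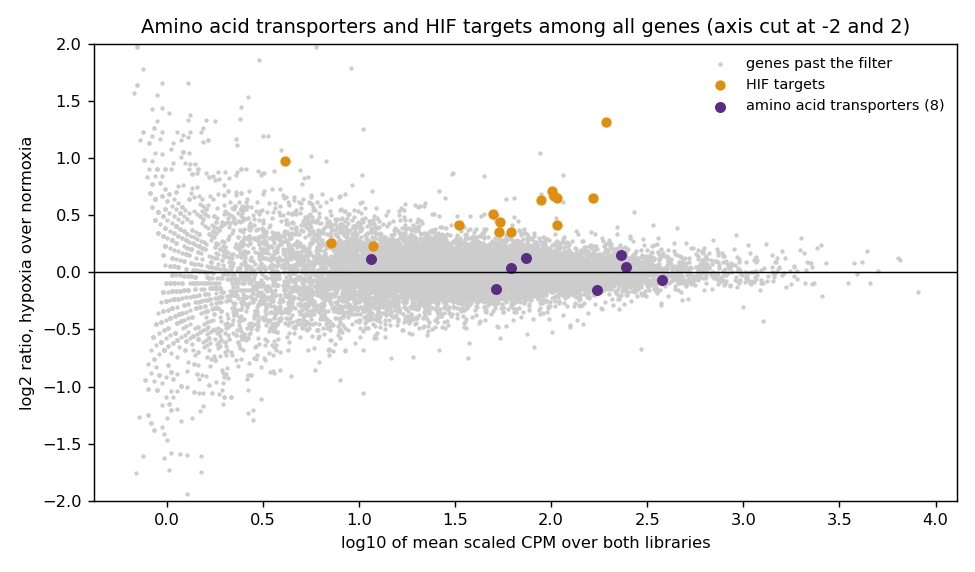
Log2 ratio, hypoxia over normoxia (y axis, shown from -2 to 2), against log10 of the mean scaled CPM (x axis) for genes past the filter with counts in both libraries (grey). The 8 amino acid transporters (purple) lie between -0.15 and 0.15, and the 15 HIF targets (orange) between 0.23 and 1.32.

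Other listed transporters of these families or of the plasma membrane all lay below SLC7A5. They reached 26.4 FPKM in hypoxia and 27.4 FPKM in normoxia. Of 41 others listed, 28 were in the table and 16 passed the filter. In normoxia 8 of the 16 stood at or over the level of SLC1A4, the lowest member. Together the 28 had 99.8 FPKM in hypoxia and 99.8 FPKM in normoxia, so the 8 members made up 74.5% and 74.9% of this sum. The sum leaves out carriers listed only as lysosomal or mitochondrial, such as MFSD12, named here for its level (69.9 FPKM in hypoxia, 73.3 FPKM in normoxia). The median log2 ratio of the 16 was 0.0031, with the interval of 2 above 0 and of 3 below. SLC6A6, the taurine transporter, had 3427 counts in hypoxia, against 2734 in normoxia, for a log2 ratio of 0.23 (0.16 to 0.31). This is a larger difference than that of any member. SLC38A6 was at 0.21 (0.00 to 0.41), SLC38A3 at 0.64 (-0.34 to 1.67) on 25 counts in hypoxia, against 15 in normoxia, SLC38A10 at -0.11 (-0.19 to -0.03) and SLC43A2 (LAT4), a uniporter of branched-chain amino acids and other large neutral ones, at -0.18 (-0.31 to -0.05). SLC3A1, the heavy chain of the cystine transporter of kidney and gut, was at -1.09 (-2.23 to -0.04) on 12 counts in hypoxia, against 24 in normoxia, the only 1 of the 16 called by the smaller rule. Of the SLC1 family none of the 3 others in the table passed the filter, with 3 counts or fewer each.

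Inside the cell, the 7 lysosomal transporters past the filter had a median of 0.0078. The proton-coupled carrier SLC36A1 was highest at 0.15 (-0.08 to 0.38). The exporter of arginine and lysine SLC66A1 was lowest, with 283 counts in hypoxia, against 352 in normoxia, for a log2 ratio of -0.41 (-0.64 to -0.18), and was called lower by the smaller rule. The 10 mitochondrial carriers had a median of -0.04, with 1 interval above 0 (SFXN3, a serine transporter, 0.12) and 3 below. SLC25A29, a mitochondrial carrier of basic amino acids, was lowest at -0.31 (-0.48 to -0.15).

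Enzymes that use the imported amino acids stayed near 0 as groups. The 16 genes of glutamine, glutamate and proline metabolism had a median of -0.0059, with 3 intervals above 0 and 3 below. PRODH, which starts proline breakdown, had 39 counts in hypoxia, against 20 in normoxia (0.87, 0.06 to 1.73), and the liver-type glutaminase GLS2 had 24 and 46 (-1.03, -1.81 to -0.29). The 8 branched-chain enzymes had a median of -0.02, with BCKDHA, a subunit of the branched-chain ketoacid dehydrogenase, lowest at -0.16 (-0.31 to -0.01). BCAT1, the cytosolic branched-chain aminotransferase, was highest at 0.44 (-0.48 to 1.39) from 26 counts in hypoxia, against 18 in normoxia. The 20 cytosolic aminoacyl-tRNA synthetases, which load amino acids onto tRNA, had a median of 0.03, with 7 intervals above 0 and 4 below. FARSA, a subunit of the phenylalanyl-tRNA synthetase, was lowest at -0.15 (-0.22 to -0.08). ATF4 and its 19 listed targets outside transport had a median of 0.03. Of them the secreted glycoprotein STC2, which is also known to respond to HIF, was called higher by the smaller rule with 2198 counts in hypoxia, against 1636 in normoxia (0.33, 0.24 to 0.43). PHGDH, the entry enzyme of serine synthesis, was lowest at -0.23 (-0.36 to -0.10).

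The 7 amino acid sensors upstream of mTORC1 all had ratios above 0, with a median of 0.10, where that of all genes past the filter was 0.0032. Only LARS1, the leucyl-tRNA synthetase, had an interval wholly above 0, at 0.13 (0.05 to 0.21), as did 15.0% of genes past the filter. A shift shared by the 7 was not tested. The highest was SESN1, a leucine-responsive sestrin, at 0.14 (-0.32 to 0.61) on 86 counts in hypoxia, against 73 in normoxia, and the lowest SLC38A9, the lysosomal arginine sensor, at 0.0078 (-0.23 to 0.24). Of 4 genes for ubiquitin ligases and lysosomal sorting of transporters, NEDD4L was at 0.14 (0.04 to 0.25) and NEDD4 at -0.16 (-0.35 to 0.03).

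**Figure D5:**
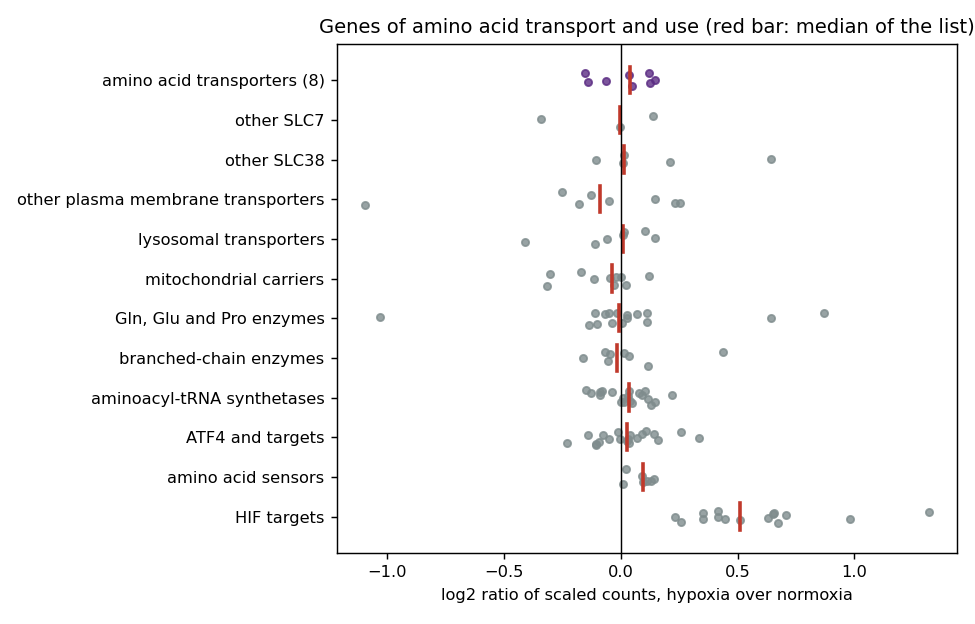
Log2 ratio of scaled counts, hypoxia over normoxia (x axis), for each gene past the filter (points) in lists of amino acid transport and use, with the median of each list as a red bar. The medians of the transport and enzyme lists lie between -0.09 and 0.10 and that of the HIF targets at 0.51.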

How the data were processed

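Per the labels' protocols, RNA came from a TRIzol extraction (stranded mRNA libraries) or a mirVana kit (small RNA). Bowtie, HTSeq, Cufflinks, HISAT2, Trimmomatic and the GRCh38 build are named, without versions or roles, per the submitters' processing notes. The authors deposited read counts per gene and per miRNA, FPKM per gene and TPM per miRNA. The FPKM equalled the counts over the table total and a whole gene length (within 0.01 bases for 100% of genes). The TPM equalled the counts times a constant per library.

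Counts were scaled by TMM (edgeR 4.0.16, R 4.3.3). Ratios of hypoxia to normoxia have exact conditional (Clopper-Pearson) 95% intervals, FPKM exact Poisson ones, and ratios between members exact conditional odds ratio intervals (scipy 1.17.1). With no molecular identifiers, PCR copies count more than once, and these intervals are too narrow. 1 read was worth a CPM of 0.0530 in hypoxia and 0.0565 in normoxia. Genes at a CPM of 1 or more in a library passed the filter, and genes at 100 counts and up in each library are called well counted. The length trend is a lowess fit (statsmodels 0.14.6). The scripts were tested on simulated data. Entrez identifiers matched RefSeq (GRCh38.p14) for 15526 of 15562 genes. Protein sequences were not used here.

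Named were all members, the highest and lowest gene of each other list, list genes called by the smaller rule, and other transporters of the same families past the filter. One gene that this rule names is not reported here. Members and lists were chosen with earlier results of these data known.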

Additional observations from a re-analysis of the deposited data

How the results depend on the processing

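With 1 library per condition, no replicate could be left out. No paired analysis was possible because each condition has 1 library. SLC7A5 was not summed with its pseudogenes, for which no value was used here. Between TMM and DESeq2 1.42.0 size factors, upper quartile scaling, total counts or centring on well-counted genes, no member's interval changed its side of 0; TMM lies 0.0098 above total counts on the log2 scale. SLC7A5 ran from 0.13 to 0.15 over all settings, SLC3A2 from -0.16 to -0.13 and SLC38A1 from 0.06 to 0.13. Centring on well-counted genes, and removing the length trend from ratios between members, were chosen after seeing the data.

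The count of members with an interval above 0 was 1 instead of 2 with the length trend removed, through SLC38A1. It was also 1 with FPKM and a pseudocount of 1, where the width of the count interval was kept around a ratio pulled towards 0. That second count does not show a dependence on the scale. Over all genes, the 60 called higher at 2-fold numbered 6 on log2 FPKM plus 1, 23 on log2 FPKM plus 0.1, 107 when unfiltered and 7 at a CPM of 5. The 56 called lower were 0, 14, 104 and 1 in that order. With a pseudocount of 1, calls by the smaller rule were 119 higher and 161 lower instead of 434 and 419. The intervals there kept the count width around ratios pulled towards 0. So the 1225 genes with an interval above 0, instead of 1903, do not measure a dependence on the scale. Total counts, the scaling of FPKM, gave 1707. Scaled to the total implied by the authors' TPM, the log2 ratio of miR-122-5p was -0.048 instead of 2.54 as a share.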

Other observations

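SLC7A2, a carrier of cationic amino acids like SLC7A1, had 13 counts in hypoxia, against 0 in normoxia. With a floor of 3 counts put in place of the 0, it was 4.06-fold higher in hypoxia. The lower 95% bound of the ratio was 2.86. It did not pass the expression filter and was named after its values were seen.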
